A study of Oryza sativa with 12 samples.

Results

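Wild type rice and the crown rootless mutant crl1 were compared in the stem base at 3 times around an auxin treatment, and the differences described here are those found at every time. All 12 of the 12 arrays of the series entered the comparison, 6 of crl1 and 6 of wild type, with time as a factor. The plants were Oryza sativa of the cultivar Taichung 65, a japonica rice. They were grown in vitro and sampled as 8-day-old seedlings, just before indole-3-acetic acid (IAA, the natural auxin) was added to 1e-06 M, and 2 h and 4 h after. The 6 groups were thus wild type and crl1 without auxin at 0 h, and each genotype at 2 h and at 4 h with auxin, with 2 arrays per group. Each RNA extract pooled 20 stem bases. The experiment was done in 2 repetitions, described as independent, and the arrays carry the repetition number. No group of seedlings left without auxin for the same hours was analysed here, and the later times hold the auxin and the elapsed hours together. Neither the nature of the crl1 allele nor the origin of the line is given in the sources used here.

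Rice builds most of its root system from crown roots, which arise after germination from cells near the vascular cylinder of the stem base. CRL1 encodes a transcription factor of the LATERAL ORGAN BOUNDARIES DOMAIN family whose transcription is induced by auxin through auxin response factors, and plants without it fail to form crown root primordia. A comparison at 0 h shows the mutant before added auxin. A difference that is also there at 2 h and 4 h was present at each sampled time, though its size may vary between times. The level of CRL1 itself was not analysed here, so the genotype labels were not checked against that gene.

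RNA was hybridised to the Affymetrix Rice Genome Array, and each value is a MAS5 signal, a linear intensity per probe set scaled to the same trimmed mean on every array. Of 57194 rice probe sets, 32524 were bright enough to be tested, and they stand for 16438 genes as well as for transcripts with no gene in the annotation. Each array's background was taken as the 95th percentile of its 64 reporter probe sets, which match genes that rice does not have, and ran from 5.83 to 18.5. The second wild type array at 2 h stood apart: 18S ribosomal RNA gave a signal of 556 there and of 3399 to 5290 elsewhere, and the ratio of 3' to 5' GAPDH signal, a sign of RNA integrity, was 35.6 there and 3.08 to 17.3 elsewhere. Since the tissue was taken whole, fewer cells of a type and less RNA per cell cannot be told apart in any value below.

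A probe set was called different at every time when the genotype difference averaged over the times had an adjusted p under 0.05 (limma, Benjamini-Hochberg over all tested probe sets) and, at 0 h, 2 h and 4 h each, both crl1 arrays lay on the same side of both wild type arrays. The averaged difference alone passed for 449 probe sets (1.38%), 301 lower in crl1 (0.925%) and 148 higher (0.455%). Of the 449, 410 (1.26% of those tested) met the full rule, 281 lower (0.864%) and 129 higher (0.397%). The arrays of the genotypes lay apart in this way in 1943 probe sets (5.97%) whatever the p. Single times passed far fewer, with 33 probe sets at 0 h (0.101%), 24 at 2 h (0.0738%) and 26 at 4 h (0.0799%). An adjusted p under 0.05 at each of the 3 times, with 1 sign, was reached by 15 probe sets (0.0461%), 14 lower and 1 higher.

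The 410 probe sets include 269 genes, of which 217 are known by a LOC number only and 52 have a name. Genes known only by LOC number made up 80.7% of these and 86.0% of all tested genes. A further 127 probe sets, 85 lower and 42 higher, have no gene or several genes in the annotation. All 269 genes are protein coding in the gene table, as are 16301 of the 16438 tested. The lower probe sets had a median fitted log2 difference of -1.17 and the higher ones of 0.98. In 39 of the lower ones all 6 crl1 arrays lay at or below background, while 2 of the higher ones had all 6 wild type arrays there. At least 1 crl1 array lay there in 89 of the lower probe sets, and at least 1 wild type array in 23 of the higher ones. Fitted folds depend there on signals that carry no level. Where both arrays of a genotype at a time lay at or below background, a lower limit ("at least") is therefore given, computed against the background of each array. With such arrays held at their background the medians were -1.03 and 0.93, and a difference of 8-fold or more remained in 13 of the lower and 1 of the higher probe sets, against 45 and 5 by the fitted values. Some of the lower probe sets then no longer lay below wild type, the highest at 0.32 log2 units. Their direction rests on signals that carry no level. The higher ones all stayed above 0, the lowest at 0.29.

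Deviations from the group means were shared by arrays of 1 genotype and 1 repetition (median r across bright probe sets 0.521, and 0.142 for arrays of different genotypes), so a genotype does not hold 6 independent units, and p-values from all 12 arrays can be too small. With genotype and repetition as a random block 121 of the 410 still passed, 92 lower and 29 higher, and with the 3 times averaged first, 2 values against 2, 62 did. Among the fits with 1 array left out, the one without crl1 0 h, repetition 2, stayed nearest to 410 and is not listed next. With 1 array left out, the probe sets different at every time numbered 150 (wild type 0 h, repetition 1), 187 (wild type 0 h, 2), 196 (crl1 0 h, 1), 165 (crl1 2 h, 1), 211 (crl1 2 h, 2), 161 (wild type 4 h, 1), 264 (wild type 4 h, 2), 162 (crl1 4 h, 1) and 214 (crl1 4 h, 2). They numbered 1624 when the first wild type array at 2 h was left out, which leaves the array that stood apart alone in its group, and 447 when that array itself was left out. Of the 410, 129 passed the averaged test in all 12 of these fits, 97 lower and 32 higher, and they include 85 genes, 69 of them with a LOC number only. The split between the directions moved with the scaling, as 33.0% of the averaged calls were higher in crl1 as deposited and 15.5% of 542 were after centring arrays on their medians. All 410 kept their sign with that centring and after quantile normalization, fits that used signals below background as they stood. With arrays held at their background some of the lower ones did not.

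Of 6 measured root markers 3 (PIN2, RAA1 and IRT1) passed as lower, where 1.10% of all measured genes did, and the list had a median of -1.07. This list was chosen with earlier results of these data known, so its share describes the members and is no test. PIN2 alone kept its call with the random block (adjusted p = 0.025), as RAA1 stood at 0.053 and IRT1 at 0.11, and IRT1 passed 3 times of 12 when each array was left out in turn. The summed signal of the 6 ran from 194 to 303 in wild type and from 102 to 183 in crl1, without overlap. That sum holds the 3 genes that passed, so it adds nothing separate from their calls. WOX9, SCR1 and the GRAS gene GRAS-38 did not pass. No root marker lay at background on all 12 arrays. The share that root tissue in the sampled stem bases has in the differences below was not tested.

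The 12 genes that passed at 0 h, at 2 h and at 4 h are the firmest part of the difference, and 10 of them are known by a LOC number only. AGGLUTININ (LOC4335068), which bears the name of carbohydrate-binding proteins, read 1966 and 1986 at 0 h, 1494 and 2454 at 2 h and 2081 and 1391 at 4 h in wild type. Its crl1 signals were 15.4 and 22.2 at 0 h, 10.7 and 17.2 at 2 h and 9.38 and 59.8 at 4 h. 1 of these crl1 arrays was at or below background. The highest crl1 array lay far below the lowest wild type array, and the averaged difference was -6.68 ± 0.38 log2 units (SE, 6 arrays per genotype; limma adjusted p = 1.3e-05). LOC4332245 was the second bright gene of this kind, with 1142 and 1042 at 0 h, 799 and 1696 at 2 h and 971 and 760.5 at 4 h in wild type. In crl1 LOC4332245 read 26.8 and 63.2 at 0 h, 50.7 and 55.3 at 2 h and 68 and 53.5 at 4 h. It kept a measurable level in the mutant, above background on all 6 arrays, at -4.34 ± 0.24 log2 units (adjusted p = 9.3e-06).

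LOC4340344 read 759 and 573 at 0 h, 738 and 274 at 2 h and 585 and 578 at 4 h in wild type. In crl1 LOC4340344 read 49 and 55.6 at 0 h, 39.1 and 37.7 at 2 h and 60.1 and 50.3 at 4 h, a difference of -3.54 ± 0.21 log2 units (limma adjusted p = 1.9e-05). The low wild type value at 2 h is on the array that stood apart, and it still lies above every crl1 array. LOC4337245 read 154 and 145 at 0 h, 66.2 and 142 at 2 h and 138 and 113 at 4 h in wild type. In crl1 LOC4337245 read 16.1 and 17.1 at 0 h, 17.4 and 17.4 at 2 h and 25.2 and 20.5 at 4 h, a difference of -2.70 ± 0.19 (adjusted p = 6.7e-05). Its 2 wild type arrays at 2 h differ from each other more than those at 0 h or 4 h.

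Another 3 genes differed with little spread between arrays. LOC4345254 read 416 and 402 at 0 h, 430.4 and 429 at 2 h and 352 and 352 at 4 h in wild type. In crl1 LOC4345254 read 87.6 and 98.5 at 0 h, 62 and 74.3 at 2 h and 92.5 and 91 at 4 h (difference -2.25 ± 0.11 log2 units, limma adjusted p = 9.3e-06). LOC4328830 read 637 and 711 at 0 h, 589 and 776 at 2 h and 666 and 675 at 4 h against 136 and 159 at 0 h, 120.0 and 142 at 2 h and 145 and 166 at 4 h (difference -2.22 ± 0.12, adjusted p = 9.3e-06). LOC4327816 read 494 and 432 at 0 h, 326 and 284 at 2 h and 398 and 439 at 4 h against 82.8 and 92.2 at 0 h, 83.8 and 90.7 at 2 h and 90.5 and 97.2 at 4 h (difference -2.12 ± 0.11, adjusted p = 9.3e-06). All 3 stayed well above background in crl1, so these folds do not rest on a floor. The sources used here annotate none of the LOC-numbered genes with a function, and none is assigned.

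Another group fell to background in crl1. LOC4341593 read 129.9 and 160.1 at 0 h, 73.7 and 103 at 2 h and 92.4 and 112 at 4 h in wild type, and its crl1 arrays, at 6.43 and 6.18 at 0 h, 9.16 and 5.97 at 2 h and 5.77 and 3.60 at 4 h, were all at or below background, so it was at least 9.76-fold lower (limma adjusted p = 9.3e-06). LOX3 (LOC4333818), a lipoxygenase, which adds oxygen to polyunsaturated fatty acids, likewise had no crl1 array above background and was at least 7.12-fold lower, from 71.5 and 137 at 0 h, 51.8 and 106 at 2 h and 66.5 and 69.7 at 4 h to 8.49 and 8.0 at 0 h, 4.13 and 10.4 at 2 h and 6.43 and 7.16 at 4 h (adjusted p = 0.00025). LOC4329975 had wild type signals of 168 and 161 at 0 h, 86 and 287 at 2 h and 94.7 and 135 at 4 h and crl1 signals of 7.73 and 8.15 at 0 h, 5.96 and 11.3 at 2 h and 4.85 and 12.3 at 4 h. Of these crl1 arrays 5 of 6 lay at or below background, and the fall was at least 14.3-fold at 0 h and at least 11.3-fold at 2 h. LOC4346054 went from 102 and 71.4 at 0 h, 66 and 113 at 2 h and 83.3 and 117 at 4 h to 9.90 and 10.4 at 0 h, 6.58 and 4.52 at 2 h and 13.7 and 6.43 at 4 h, with 5 of 6 crl1 arrays at or below background, a fall of at least 7.44-fold at 0 h and at least 6.20-fold at 2 h (limma adjusted p = 7.1e-05). A second probe set of the same gene gave the same picture, with wild type from 54.9 to 139 and crl1 from 1.18 to 2.16, so that both probe sets of this gene passed at each time.

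The single rise among the 12 was LOC4325628, at 163 and 174 at 0 h, 382 and 312 at 2 h and 191 and 145 at 4 h in crl1. In wild type LOC4325628 read 60.5 and 53 at 0 h, 76.7 and 75.8 at 2 h and 35.3 and 32.4 at 4 h. The mutant exceeded wild type by 1.57 at 0 h, 2.18 at 2 h and 2.30 at 4 h on the log2 scale and by 2.02 ± 0.13 on average (limma adjusted p = 2.2e-05). Its probe sets disagree: a dimmer one of the same gene, with wild type at 8.32 to 22.0 and crl1 at 1.82 to 12.1, stood at -1.25 ± 0.37 log2 units and did not pass (adjusted p = 0.14). A probe set of the same sequence cluster that has no gene in the annotation read 26.0 to 58.1 in wild type and 158 to 263 in crl1, higher by 2.16 ± 0.21, while another without a gene did not differ beyond the spread (-0.19 ± 0.17, adjusted p = 0.61). A further one of the cluster, assigned to LOC4325627, lay lower in crl1 at every time without passing (-0.79 ± 0.17, limma adjusted p = 0.053). It read 28.2 to 42.7 in wild type and 15.2 to 23.6 in crl1. These further probe sets were looked up after the gene's values were seen. For all 12 genes the averaged adjusted p stayed under 0.05 whichever array was left out, with the random block and in the comparison of 2 values against 2. At single times the evidence is thinner, as the number of probe sets passing at each of the 3 times ran from 0 to 22 when 1 array was left out.

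**Figure D1:**
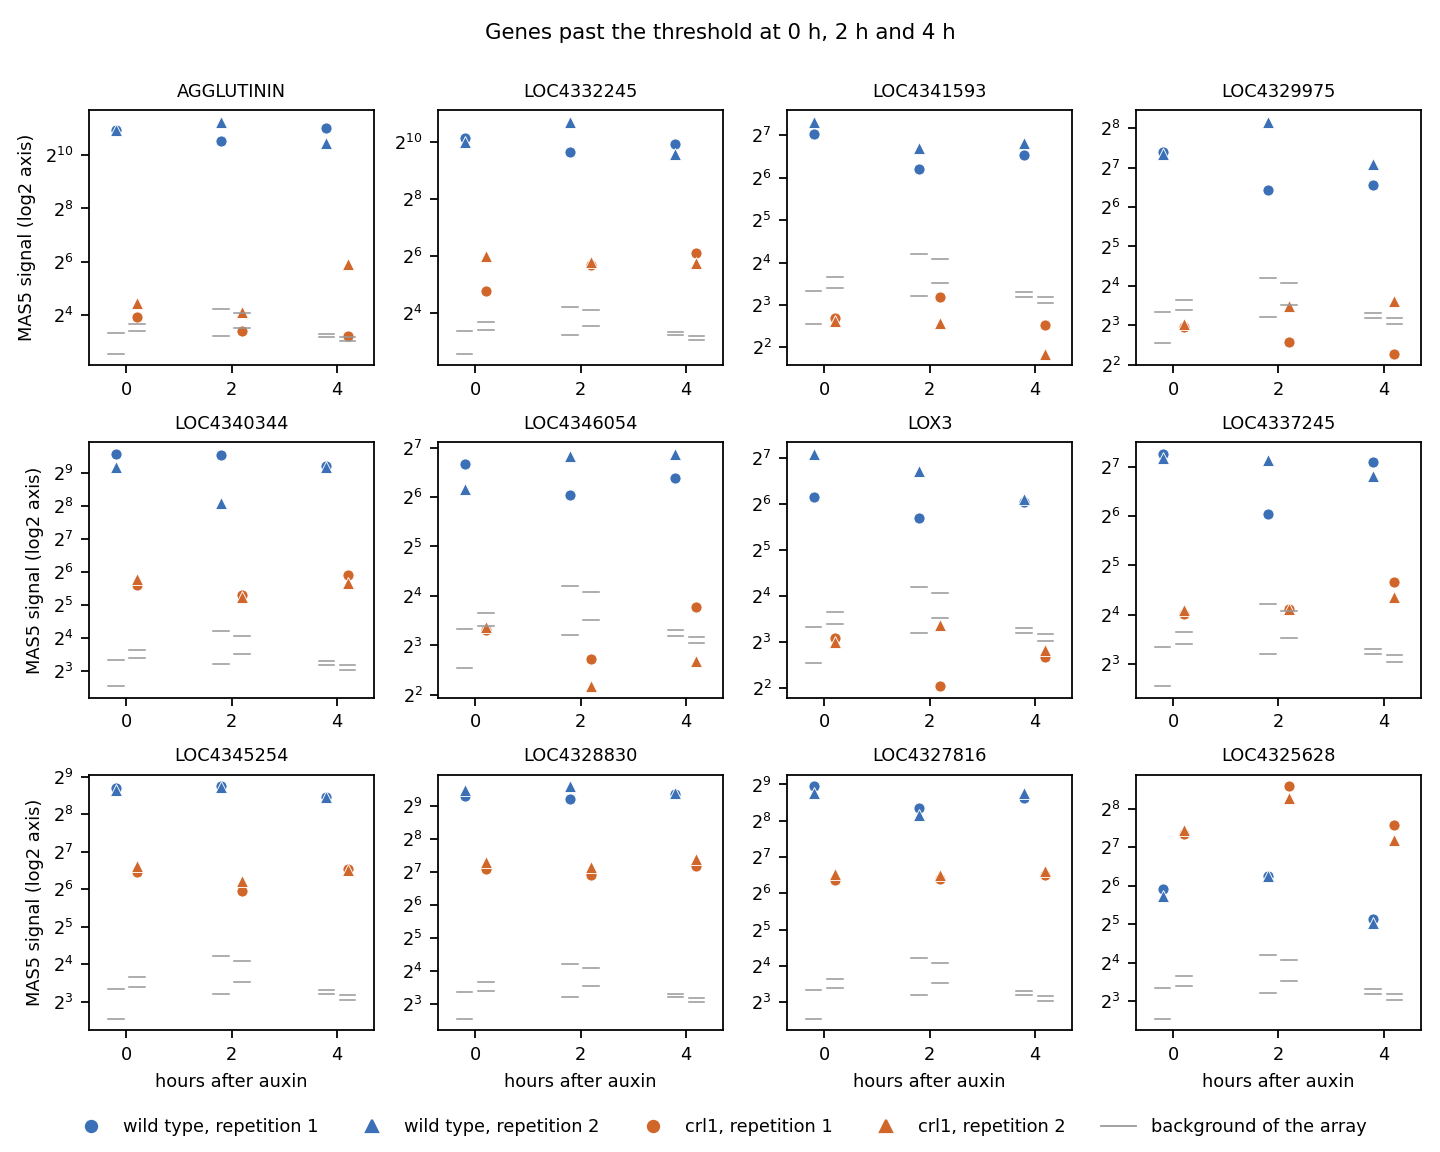
MAS5 signal (vertical log2 axis) against hours after auxin for the 12 genes that passed at each of the 3 times, 1 point per array, with grey lines at the background of each array. In 11 panels the wild type arrays lie above all crl1 arrays at every time, and in the panel of LOC4325628 they lie below.

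Among all genes different at every time, the 15 with the largest fitted falls include 13 known by LOC number only, besides AGGLUTININ and NAC076. With arrays held at their background the order would differ. LOC4352468, among the 15, then stood at -0.96 log2 units. LOC4337488, outside the 15, stood at -3.02 with no crl1 array at background. LOC4339414 went from 188 and 637 at 0 h, 122 and 570.4 at 2 h and 83.9 and 542 at 4 h in wild type to 14.4 and 9.61 at 0 h, 1.41 and 20.6 at 2 h and 0.933 and 2.83 at 4 h in crl1 (limma adjusted p = 0.0034). Of the crl1 arrays 4 of 6 lay at or below background, including both at 4 h, where the fall was at least 24.7-fold. In wild type its repetition 2 was the higher one at each time, and even the lower repetition exceeded every crl1 array. NAC076 (LOC4341201), a NAC-family transcription factor, read 59.5 and 45.4 at 0 h, 50.9 and 78.2 at 2 h and 44.8 and 53.2 at 4 h in wild type. All 6 crl1 arrays, at 5.88 and 0.975 at 0 h, 0.408 and 1.54 at 2 h and 0.893 and 0.988 at 4 h, were at or below background, and it was at least 4.88-fold lower (limma adjusted p = 0.00047). A second probe set of NAC076 was dim and lay lower without passing (-1.82 ± 0.67, adjusted p = 0.21).

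LOC107281333 fell from 162 and 199.6 at 0 h, 135 and 177 at 2 h and 106 and 126 at 4 h to 10.2 and 2.87 at 0 h, 5.33 and 7.19 at 2 h and 15.1 and 12.4 at 4 h (limma adjusted p = 3.6e-05). Its crl1 signal was at or below background at 0 h, at least 15.7-fold lower, and at 2 h, at least 11.1-fold lower. At 4 h both crl1 arrays lay above background and the difference was -3.08 log2 units. LOC4325636 was at least 9.02-fold lower (adjusted p = 0.00049), from 98.4 and 148 at 0 h, 54 and 193 at 2 h and 51.2 and 132 at 4 h to crl1 signals of 10.3 and 9.45 at 0 h, 10.5 and 6.12 at 2 h and 2.90 and 5.09 at 4 h, none of them above background. LOC4329481 went from 66.5 and 166 at 0 h, 45.3 and 215 at 2 h and 42.2 and 107 at 4 h to 9.0 and 4.34 at 0 h, 3.19 and 8.76 at 2 h and 0.745 and 10.1 at 4 h (adjusted p = 0.011), with 5 of 6 crl1 arrays at or below background, at least 9.14-fold lower at 0 h and at least 7.08-fold at 2 h. For both genes the wild type arrays spread widely between repetitions, and the crl1 arrays stayed below all of them.

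Some of the other large fitted falls were of dim transcripts. LOC4336099 (at least 2.38-fold, wild type 17.7 to 39.5, median 25.3), LOC4338247 (at least 2.02-fold, wild type 16.8 to 28.6, median 22.7) and LOC4352468 (at least 1.95-fold, wild type 11.8 to 36.9, median 22.1) had all 6 crl1 arrays at or below background, with limma adjusted p of 0.001, 0.0014 and 0.0059. A second probe set of LOC4352468, as dim, did not pass (-0.54 ± 0.36, adjusted p = 0.48). LOC4341722 was at least 5.75-fold lower (wild type 39.4 to 84.7, median 72.6, adjusted p = 0.018). Its call was lost when either array of wild type at 0 h, either array of wild type at 4 h or array 1 of crl1 at 0 h was left out (adjusted p 0.054 to 0.065). Of the 15 falls, 13 passed in all 12 fits with 1 array left out. With the random block the same number passed, LOC4341722 and LOC4339415 being the exceptions (adjusted p = 0.059 and 0.11).

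Among genes, the largest rise by the fitted difference belonged to MFT2 (LOC4326145), of the family of MOTHER OF FT AND TFL1, relatives of the flowering signal FT that act in seeds. Its crl1 signals were 57.3 and 274 at 0 h, 94.3 and 153 at 2 h and 110.3 and 196 at 4 h, against 3.25 and 2.28 at 0 h, 13.3 and 0.749 at 2 h and 3.87 and 11.9 at 4 h in wild type. Wild type lay at or below background on 4 of 6 arrays and on both at 0 h, where the rise was at least 16.3-fold (averaged limma adjusted p = 0.0045). D53-L (LOC4351252), named for its likeness to the strigolactone-signalling repressor D53, read 13.5 and 22.1 at 0 h, 31.6 and 15.8 at 2 h and 26.4 and 18 at 4 h in crl1. In wild type D53-L read 5.28 and 3.99 at 0 h, 0.963 and 1.43 at 2 h and 4.21 and 11.7 at 4 h. It was dim throughout, with 5 wild type arrays and 1 crl1 array at or below background, and the rise was at least 2.25-fold at 0 h (averaged adjusted p = 0.0092). The crl1 array at background was repetition 2 at 2 h, so no lower limit is given for that time. The call was lost when array 1 of crl1 at 4 h was left out (adjusted p = 0.0502). A far brighter probe set of D53-L, at 550.1 to 1255 in wild type and 703 to 1190.3 in crl1, did not pass (0.26 ± 0.19, adjusted p = 0.51).

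Rises of LOC-numbered genes were mostly of measurable transcripts. LOC4349325 read 99.8 and 53.3 at 0 h, 122 and 65 at 2 h and 97.9 and 114 at 4 h in crl1. In wild type LOC4349325 read 14.9 and 13.2 at 0 h, 39.4 and 11.2 at 2 h and 21 and 13.7 at 4 h (difference 2.37 ± 0.32 log2 units, limma adjusted p = 0.0053). 1 of those wild type arrays was at or below background. LOC4347693 read 172 and 140.4 at 0 h, 203 and 74.9 at 2 h and 133 and 89.5 at 4 h against 50.3 and 48.9 at 0 h, 32 and 28.7 at 2 h and 26 and 24 at 4 h (difference 1.93 ± 0.23, adjusted p = 0.0026). Wild type was brightest at 0 h in LOC4347693, and the order of the genotypes was the same at each time. LOC4337669 read 149 and 75.5 at 0 h, 132 and 75.5 at 2 h and 115 and 77.4 at 4 h against 34.2 and 28 at 0 h, 26.3 and 32.5 at 2 h and 31.4 and 34.4 at 4 h (difference 1.69 ± 0.22, adjusted p = 0.0043), with crl1 repetition 1 the higher one at each time. LOC4339315 read 96 and 156 at 0 h, 60.3 and 137 at 2 h and 178 and 153 at 4 h against 60.8 and 66.9 at 0 h, 25.9 and 23.8 at 2 h and 16.7 and 29.9 at 4 h, and its difference was 0.94 at 0 h, 1.87 at 2 h and 2.89 at 4 h (averaged adjusted p = 0.0033).

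The brightest rise of this group was LOC4348123, at 565 and 455 at 0 h, 463 and 382 at 2 h and 475 and 408 at 4 h in crl1. In wild type LOC4348123 read 45 and 243 at 0 h, 82.8 and 193 at 2 h and 95.2 and 148 at 4 h (difference 1.97 ± 0.37 log2 units, limma adjusted p = 0.029). Its wild type repetitions differed widely at 0 h. The call was lost when any array but either array of wild type at 0 h or either array of wild type at 2 h was left out (adjusted p 0.054 to 0.11). LOC4325318 (difference 1.72 ± 0.36, adjusted p = 0.045, crl1 86.3 to 504, median 194 and wild type 29.7 to 122, median 52.3) lost its call when any array but array 1 of wild type at 2 h, array 2 of crl1 at 0 h, array 2 of crl1 at 2 h or array 2 of crl1 at 4 h was left out (adjusted p 0.066 to 0.14). The ranges of its genotypes overlap across times but not within a time. Of its other 2 probe sets 1 passed as higher (1.54 ± 0.28, adjusted p = 0.025) and 1 did not (0.34 ± 0.25, adjusted p = 0.51). LOC4331336 (difference 1.68 ± 0.33, adjusted p = 0.037, crl1 72.4 to 136, median 88 and wild type 14.5 to 55.9, median 31.6) lost it when any array but array 2 of wild type at 0 h, either array of wild type at 2 h or array 2 of wild type at 4 h was left out (adjusted p 0.073 to 0.12).

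GLU15 (LOC4345463), of a family of enzymes that cut glucans, read 268 and 366 at 0 h, 129.8 and 322 at 2 h and 234 and 333 at 4 h in crl1. In wild type GLU15 read 69.2 and 74.2 at 0 h, 86.6 and 88.5 at 2 h and 64.1 and 123 at 4 h (difference 1.67 ± 0.24 log2 units, limma adjusted p = 0.0079). CIPK6 (LOC4345687), a protein kinase of the family activated by calcineurin B-like calcium sensors, read 434 and 368 at 0 h, 505 and 257 at 2 h and 519 and 359 at 4 h against 119 and 228 at 0 h, 174 and 191 at 2 h and 114 and 137 at 4 h (difference 1.35 ± 0.21, adjusted p = 0.012). Every crl1 array of either gene lay above both wild type arrays of its time. The call of CIPK6 was lost when array 1 of wild type at 4 h or array 1 of crl1 at 4 h was left out (adjusted p 0.055 to 0.057).

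LOC4329865 (crl1 25.8 to 34.4, median 28.4, wild type 4.16 to 13.2, median 7.87, limma adjusted p = 0.012) and LOC4344250 (crl1 16.3 to 27.5, median 25.1, wild type 3.73 to 13.4, median 7.37, adjusted p = 0.0097) rose from dim wild type signals, of which 4 and 3 of 6 lay at or below background. A far brighter probe set of LOC4344250, looked up after the values were seen, read 710.1 to 1395 in wild type and 618 to 830.0 in crl1 and did not pass (-0.38 ± 0.16, adjusted p = 0.27). The probe sets of this gene therefore give no common direction. Of the 15 rises, 9 passed in all 12 fits with 1 array left out, 8 with the random block and 5 in the comparison of 2 values against 2. Over all genes different at every time, 63 had further probe sets among those tested, 83 in number, of which 70 had the same sign and 17 passed in the same direction.

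**Figure D2:**
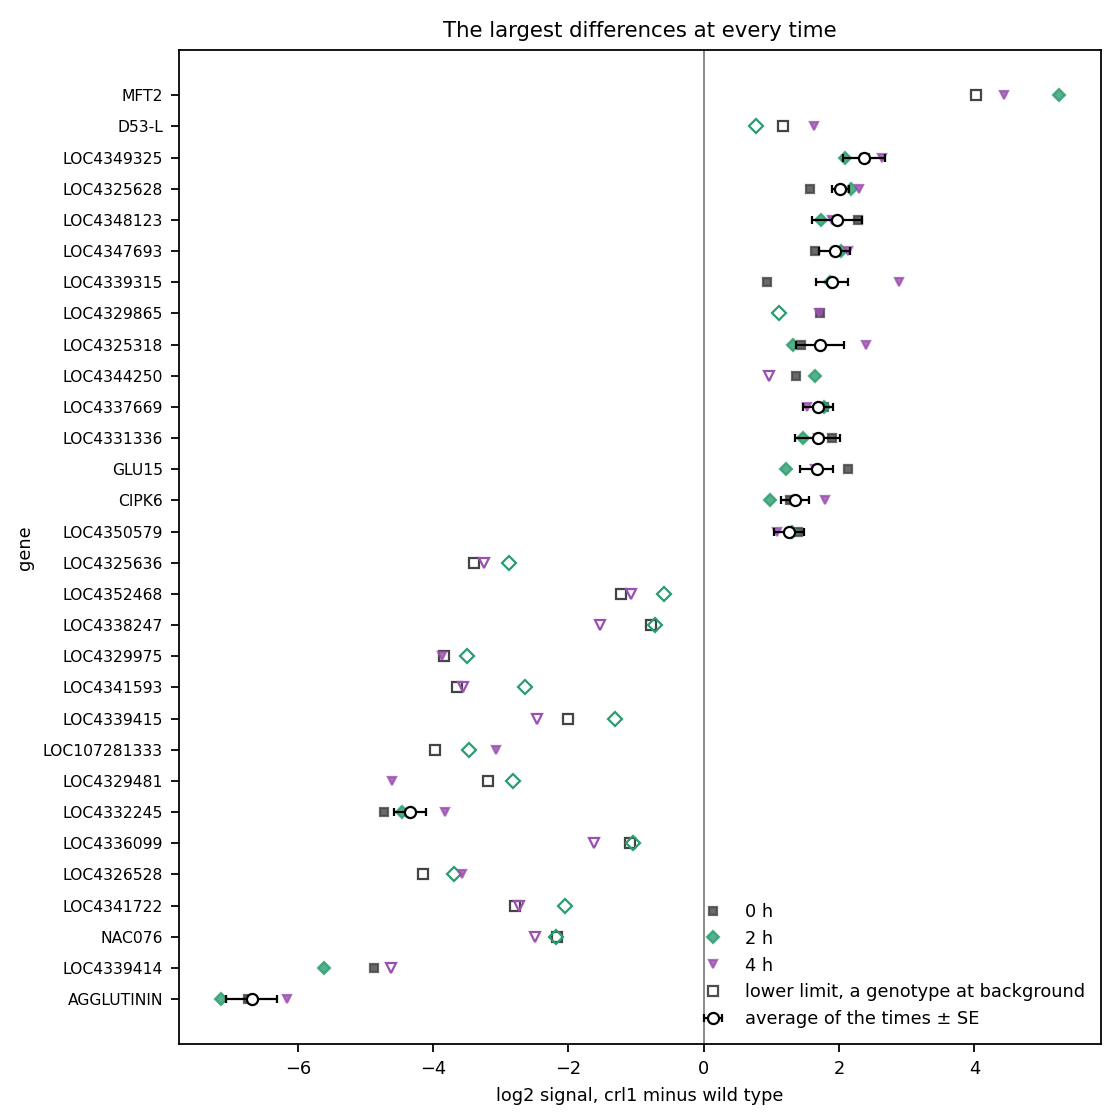
Difference in log2 signal, crl1 minus wild type (horizontal axis), for the 15 genes with the largest fitted falls and the 15 with the largest fitted rises among those different at every time. Filled symbols are the single times, and hollow ones stand at the lower limit where both arrays of a genotype lay at or below background. For D53-L at 2 h a crl1 array lay there too, so its hollow symbol is not a lower limit. Open circles and bars, drawn for genes with no such limit, are the average of the 3 times and its SE, and all symbols of a gene lie on 1 side of 0.

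The largest fitted difference of all had no gene. Probe set Os.8655.1.S1_at read 3266 and 3847 at 0 h, 3674 and 4614 at 2 h and 4321 and 4169.9 at 4 h in wild type. In crl1 Os.8655.1.S1_at read 99.6 and 6.86 at 0 h, 6.60 and 9.96 at 2 h and 6.77 and 3.98 at 4 h. It was thus among bright transcripts in wild type and at or below background in 5 of 6 crl1 arrays, and was at least 296-fold lower at 2 h and at least 492-fold at 4 h (averaged limma adjusted p = 1.7e-05). The 1 crl1 array above background was 0 h repetition 1. OsAffx.5729.1.S1_at was the next fall without a gene and dim, from 13.2 to 30.6, median 24.3 in wild type to background, at least 2.03-fold (adjusted p = 0.00092). In the other direction OsAffx.32106.2.S1_x_at read 15.2 and 38.4 at 0 h, 41.4 and 40.2 at 2 h and 29.8 and 47.9 at 4 h in crl1, with all 6 wild type arrays at or below background, and was at least 3.39-fold higher (adjusted p = 0.0053). A partner probe set of the same cluster read 39.8 to 74.5 in crl1 and 1.82 to 11 in wild type. Os.27208.1.S1_at, at 16.2 and 13.8 at 0 h, 32.9 and 25.5 at 2 h and 23.4 and 22.4 at 4 h in crl1, was at least 2.18-fold higher over wild type background (limma adjusted p = 0.001). These 4 probe sets were each on 1 side at every time, and all 4 passed in each fit with 1 array left out.

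Some of the genes different at every time lie next to each other. The gene table holds 8693 pairs of consecutive genes that were both tested, and in 7 of them both genes were different at every time. Of all 16438 tested genes 269 were different at every time. Whether 7 pairs are more than that share would give was not tested. In each of the 7 pairs both genes moved the same way, 5 pairs lower in crl1 and 2 higher. Of all probe sets different at every time 281 were lower and 129 higher. LOC4339414 and LOC4339415 were both among the 15 largest fitted falls. LOC4339415 read 33.2 and 64 at 0 h, 15.5 and 76.4 at 2 h and 31.4 and 71.5 at 4 h in wild type. In crl1 LOC4339415 read 5.64 and 0.661 at 0 h, 2.76 and 2.84 at 2 h and 0.615 and 6.56 at 4 h, at least 3.79-fold lower (limma adjusted p = 0.019). Its call was lost when either array of wild type at 0 h, either array of wild type at 4 h or either array of crl1 at 2 h was left out (adjusted p 0.052 to 0.066). In both genes of the pair wild type repetition 2 exceeded repetition 1 at each time.

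LOC4326528 lay beside LOC4326529. LOC4326528 read 124 and 338 at 0 h, 84.4 and 385 at 2 h and 69 and 225 at 4 h in wild type. In crl1 LOC4326528 read 11.4 and 7.62 at 0 h, 2.88 and 7.16 at 2 h and 11.6 and 9.44 at 4 h (limma adjusted p = 0.001). Of these crl1 arrays the 4 at 0 h and 2 h lay at or below background, so the fall was at least 17.8-fold and at least 12.9-fold there. LOC4326529 was dimmer, from 19.9 to 39.4 in wild type with all 6 crl1 arrays at or below background (adjusted p = 0.028). It lost its call when any array but array 1 of wild type at 2 h or either array of crl1 at 0 h was left out (adjusted p 0.052 to 0.1). PIN2 (LOC4341736), an auxin efflux carrier of root tips, lay beside LOC4341735. PIN2 read 33.3 and 39.8 at 0 h, 33.2 and 22.8 at 2 h and 24.1 and 33.9 at 4 h in wild type. In crl1 PIN2 read 4.53 and 6.02 at 0 h, 9.27 and 12.9 at 2 h and 12.6 and 11.6 at 4 h (adjusted p = 0.0035). The 4 crl1 arrays at 0 h and 2 h lay at or below background, and PIN2 was at least 3.17-fold lower at 0 h and at least 1.98-fold at 2 h. LOC4341735 ran from 97.2 to 139 in wild type and from 48.4 to 88.1 in crl1, a difference of -0.81 ± 0.14 log2 units (limma adjusted p = 0.026). Its call was lost when any array but either array of wild type at 2 h, array 2 of crl1 at 0 h or array 2 of crl1 at 2 h was left out (adjusted p 0.064 to 0.1).

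The pair LOC4351746 and LOC9267818 differed by similar amounts, -1.74 ± 0.15 and -2.04 ± 0.25 log2 units (limma adjusted p = 0.00039 and 0.0033). LOC4351746 ran from 96.1 to 168 in wild type and 33.2 to 52.2 in crl1, and LOC9267818 from 32.8 to 63.9 and 7.61 to 18.5, with 3 of 6 crl1 arrays at or below background. So did LOC4350809 and LOC9267585, at -1.46 ± 0.19 and -1.25 ± 0.13 (adjusted p = 0.0047 and 0.0010). LOC9267585 ran from 329 to 462 in wild type and 133 to 187 in crl1, with no overlap. These 4 genes passed in all 12 fits with 1 array left out and with the random block (adjusted p 0.0031 to 0.026). LOC4339414, LOC4326528 and PIN2 also kept their calls with the block, while LOC4339415, LOC4326529 and LOC4341735 lost them (0.11, 0.097 and 0.12).

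Of the 2 rising pairs, LOC4349324 was the bright neighbour of LOC4349325, at 595 to 1009.9 in wild type and 1006 to 2065 in crl1 (0.96 ± 0.15, limma adjusted p = 0.012). It lost its call when array 1 of wild type at 0 h or array 1 of crl1 at 2 h was left out (adjusted p 0.051 to 0.055). LOC4350579 read 113 and 93.7 at 0 h, 127 and 77.4 at 2 h and 116 and 81.8 at 4 h in crl1. In wild type LOC4350579 read 45.4 and 33.5 at 0 h, 57.2 and 28 at 2 h and 53.7 and 39.4 at 4 h (difference 1.26 ± 0.22, adjusted p = 0.023), beside LOC4350580 (0.72 ± 0.14, adjusted p = 0.029) at 251 to 339 in crl1 and 131 to 219 in wild type. LOC4350579 lost its call when any array but either array of wild type at 2 h, array 2 of crl1 at 0 h, array 2 of crl1 at 2 h or array 2 of crl1 at 4 h was left out (adjusted p 0.055 to 0.093), and LOC4350580 lost it when any array but either array of wild type at 2 h was left out (adjusted p 0.054 to 0.12). LOC4349325 alone of these 4 passed with the random block (adjusted p = 0.024). Whether probes of one gene of a pair also bind transcripts of its neighbour was not tested.

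**Figure D3:**
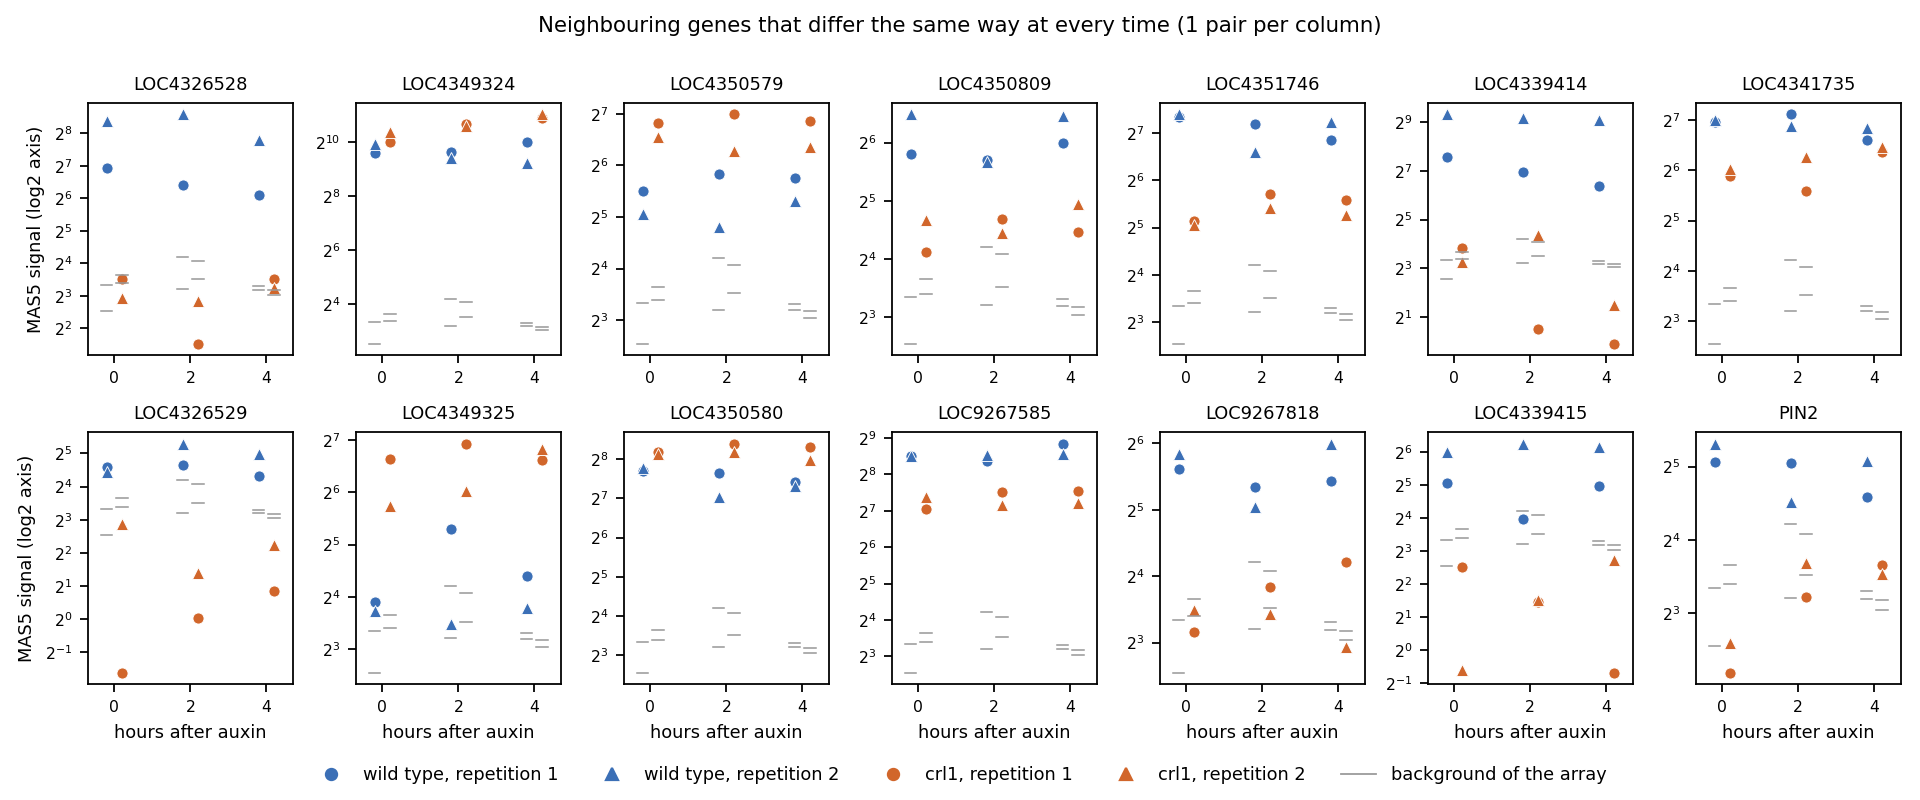
MAS5 signal (vertical log2 axis) against hours after auxin for the 7 pairs of neighbouring genes, 1 pair per column and 1 point per array, with grey lines at the background of each array. In 5 columns both genes are lower in crl1 at every time, and in the columns that start with LOC4349324 and LOC4350579 both are higher.

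The rule asks for a gap before auxin as well as after it, and the median sizes at the 3 times lay close together. With arrays held at their background where they lay below it, the median log2 difference of the lower probe sets was -1.10 at 0 h, -0.98 at 2 h and -1.05 at 4 h, and that of the higher ones 0.88, 0.97 and 1.00. These medians describe probe sets chosen for being apart at each time. The single-time calls can be set beside the signs at the other times. The times share no arrays, but they share the repetitions and the estimate of the spread, so this is a description and no independent check. All 33 probe sets called at 0 h had the same sign at 2 h, where 18 of them were also called, and 32 had it at 4 h, where 15 were called. Of the 24 called at 2 h, all had that sign at 0 h and at 4 h. Of the 26 called at 4 h, 24 had it at 0 h and 25 at 2 h. Over all tested probe sets the sign was shared between pairs of times in 57.8% to 59.2%.

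**Figure D4:**
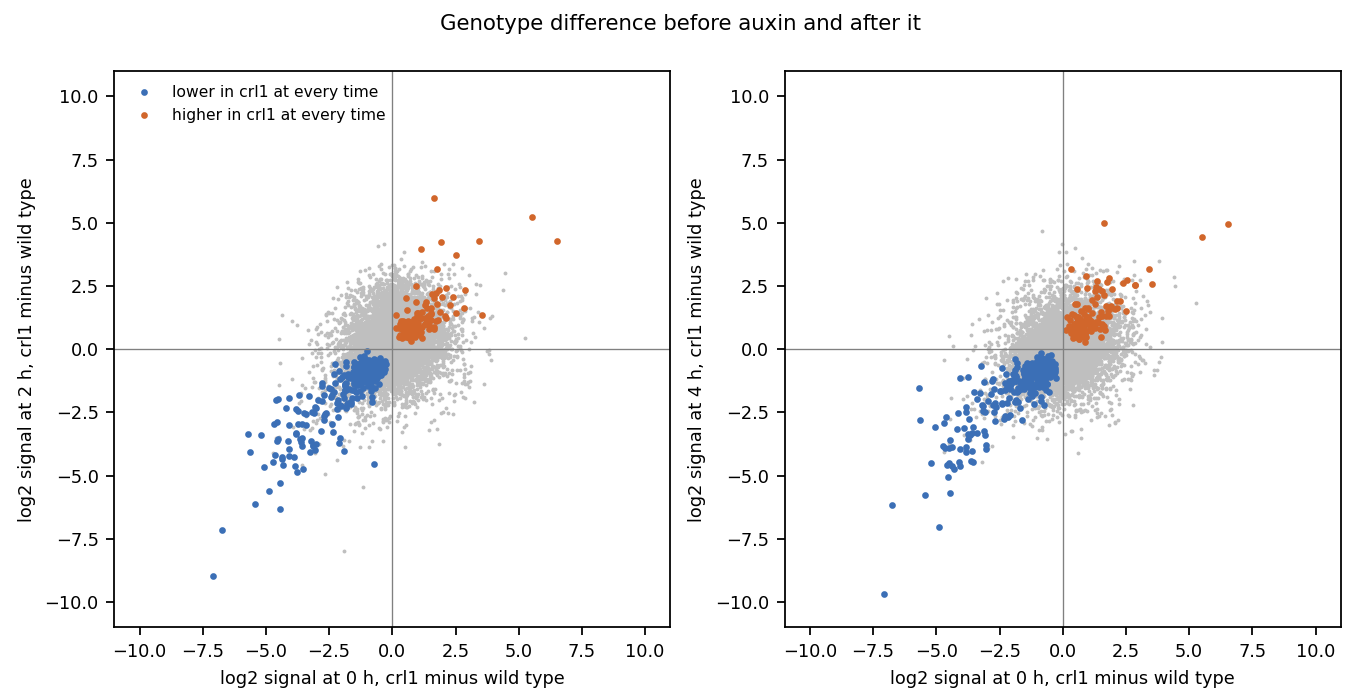
Difference in log2 signal, crl1 minus wild type, at 0 h (horizontal axes) against 2 h and 4 h (vertical axes), 1 point per tested probe set. Blue and orange points are the 281 lower and 129 higher probe sets that differed at every time, chosen by their sign at each time, and grey points are all others. All differences are fitted ones, which carry no size where a genotype lay at background.

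Whether the genotype difference changed with time was tested with limma's F test, which passed 0 probe sets (0%), with 1243 (3.82%) at an unadjusted p under 0.05 and a lowest adjusted p of 0.93. Other tools were not run. Among the 410, 24 (5.85%) had an unadjusted p under 0.05. The count ran from 0 to 814 when 1 array was left out, the highest without wild type 2 h repetition 1. Of the 6 genes with the smallest interaction p among those past the averaged test, RAA1, RA5 and LOC9270747 were different at every time and the other 3 were not. With the random block LOC4337483 alone of the 6 kept its averaged call (limma adjusted p = 0.018). RAA1 stood at 0.053, LOC4347115 at 0.057, RA5 at 0.11, LOC4328018 at 0.14 and LOC9270747 at 0.15. LOC4328018 read 35.9 and 52.4 at 0 h, 31.4 and 40.4 at 2 h and 11.7 and 2.51 at 4 h in wild type. In crl1 LOC4328018 read 33 and 55.2 at 0 h, 81.8 and 114 at 2 h and 98.6 and 93.8 at 4 h. The genotypes overlap at 0 h, and at 4 h both wild type arrays lie far below both crl1 arrays (unadjusted p = 0.0012).

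LOC4337483 ran the other way, at 95.9 and 154 at 0 h, 169 and 251 at 2 h and 86.4 and 134 at 4 h in wild type. In crl1 LOC4337483 read 19.3 and 12.7 at 0 h, 44.5 and 27.4 at 2 h and 164 and 70.4 at 4 h, with lower crl1 arrays at 0 h and 2 h and overlap at 4 h (unadjusted p = 0.0014). LOC4347115 had overlapping genotypes at 0 h and higher crl1 arrays later, at 144 and 179 at 0 h, 71.6 and 105 at 2 h and 73.6 and 98.3 at 4 h against 196 and 162 at 0 h, 175 and 189.5 at 2 h and 232 and 224 at 4 h (unadjusted p = 0.011). RAA1 (LOC4326229), a gene named for root architecture, was lower in crl1 at every time, at 64.4 and 94 at 0 h, 63 and 56.4 at 2 h and 92 and 98.3 at 4 h in wild type. In crl1 RAA1 read 12.1 and 21.8 at 0 h, 39.2 and 39.5 at 2 h and 54.5 and 42.9 at 4 h. Its difference was -2.26 at 0 h, -0.60 at 2 h and -0.98 at 4 h, with 1 crl1 array at or below background (unadjusted p = 0.0087). RA5 (LOC4342727), a seed allergen gene, read 33.3 and 26.8 at 0 h, 31 and 49.3 at 2 h and 40.8 and 44.2 at 4 h in wild type. In crl1 RA5 read 19.7 and 16.5 at 0 h, 4.27 and 0.643 at 2 h and 6.60 and 12.6 at 4 h. Both crl1 arrays at 2 h lay at or below background, where it was at least 2.81-fold lower. LOC9270747 differed by -1.01 at 0 h, -0.07 at 2 h and -0.49 at 4 h. The interaction adjusted p of these 6 genes was 0.93, so no change of the difference with time passed.

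At most 2 members of each auxin and cytokinin list passed, and PIN2 alone of their named probe sets kept its call with the random block. Over all measured genes 180 of 16438 passed as lower (1.10%) and 84 as higher (0.511%), with a median log2 difference of 0.00. The lists here and below hold only genes whose name matches. The 86.0% of tested genes known by a LOC number only are in none of them, so a list is not a whole family. Of 16 auxin response factors, which switch auxin-responsive genes, 2 were higher and the median was 0.02. ARF2 (LOC4325895) read 299.9 and 373 at 0 h, 408 and 457 at 2 h and 340.5 and 343 at 4 h in crl1. In wild type ARF2 read 248 and 263 at 0 h, 221 and 278 at 2 h and 222 and 231 at 4 h. ARF3 (LOC4327014) read 410.1 and 279.6 at 0 h, 384 and 334 at 2 h and 412 and 235 at 4 h in crl1. In wild type ARF3 read 211 and 205 at 0 h, 236 and 148 at 2 h and 163 and 129 at 4 h. The crl1 arrays lay above wild type at each time in both (limma adjusted p = 0.032 and 0.039), and a second probe set of ARF2 passed as higher too (0.82 ± 0.12, adjusted p = 0.0072). Of 25 Aux/IAA repressors 1 was lower, IAA2 (LOC4326775), at 632 and 930.0 at 0 h, 434 and 474 at 2 h and 553 and 665 at 4 h in crl1. In wild type IAA2 read 1051 and 1128 at 0 h, 579 and 707 at 2 h and 1054 and 1191 at 4 h (median of the list -0.01, adjusted p of IAA2 0.041). Of 5 auxin carriers PIN2 alone passed (median 0.28), and of 8 GH3 genes, whose enzymes conjugate auxin, 0 did (median 0.18). The named probe set of ARF2 lost its call when any array but either array of wild type at 2 h or array 1 of crl1 at 0 h was left out (adjusted p 0.062 to 0.12), while the second passed in all 12 of those fits and with the random block (adjusted p = 0.041). ARF3 lost it when any array but array 1 of wild type at 2 h, array 2 of crl1 at 0 h or array 2 of crl1 at 4 h was left out (adjusted p 0.056 to 0.13), and IAA2 lost it when any array but array 1 of wild type at 2 h or array 2 of crl1 at 0 h was left out (adjusted p 0.054 to 0.15). Under the random block the adjusted p was 0.13 for the named probe set of ARF2, 0.13 for ARF3 and 0.14 for IAA2.

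Of 10 type-A response regulators, which damp cytokinin signalling, RR4 (LOC4325747) was lower, with wild type 59.4 to 117, median 92.9 and crl1 37.7 to 88.8, median 53.3 (limma adjusted p = 0.039, median of the list -0.25). Cytokinin oxidases break cytokinin down. Of 4 measured, CKX5 (LOC4327887) was lower at every time (adjusted p = 0.043) and CKX4 (LOC4326515) was higher over the times, with overlapping arrays at 0 h (adjusted p = 0.02, median of the list -0.19). RR4 lost its call when any array but either array of wild type at 2 h was left out (adjusted p 0.059 to 0.14), CKX5 when any array but array 1 of wild type at 2 h or array 2 of crl1 at 0 h was left out (adjusted p 0.064 to 0.14), and CKX4 when array 2 of wild type at 0 h, array 1 of wild type at 4 h, array 1 of crl1 at 2 h or either array of crl1 at 4 h was left out (adjusted p 0.053 to 0.078). Their adjusted p under the random block was 0.19, 0.22 and 0.075. None of 8 LOG-like genes, which release active cytokinin, passed (median 0.20).

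Calls among cell wall genes lay in both directions, but with the random block those that stayed, EXPB18 and CSLC3, were lower. EXPB18 (LOC4338206), a beta-expansin, which loosens walls, read 57.4 and 40.1 at 0 h, 73.7 and 109 at 2 h and 71.3 and 80.4 at 4 h in wild type. In crl1 EXPB18 read 4.62 and 2.94 at 0 h, 40.8 and 15.9 at 2 h and 5.99 and 20.5 at 4 h (limma adjusted p = 0.0033). Of these crl1 arrays 4 of 6 lay at or below background, including both at 0 h, where the fall was at least 4.18-fold. The expansins EXP2 and EXPB11 were higher (adjusted p = 0.02 and 0.022), with EXP2 at 1478 and 1317 at 0 h, 2277 and 2284 at 2 h and 1757 and 1624 at 4 h against 1073 and 1239 at 0 h, 1521 and 1755 at 2 h and 682 and 859 at 4 h, so 1 of 21 expansins and XTH genes was lower and 2 were higher (median 0.16). The arrays of EXPB11 overlap at 0 h. EXP2 lost its call when any array but either array of wild type at 2 h, array 2 of wild type at 4 h or array 2 of crl1 at 0 h was left out (adjusted p 0.051 to 0.093), and EXPB11 when array 1 of wild type at 0 h, array 1 of wild type at 4 h, array 1 of crl1 at 0 h, either array of crl1 at 2 h or array 1 of crl1 at 4 h was left out (adjusted p 0.065 to 0.093). With the random block they stood at 0.074 and 0.08 (adjusted p). Of 18 cellulose synthase-like genes CSLC3 (LOC4345095) was lower, at least 3.64-fold, from 34.5 and 67.8 at 0 h, 27.8 and 53.3 at 2 h and 16 and 80.2 at 4 h to background (adjusted p = 0.0073, median of the list 0.11). None of 9 cellulose synthases passed (median 0.38).

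Chitinase and glucanase genes, whose enzymes act on chitin of fungal walls and on glucans, had 2 lower and 2 higher members of 21 (median -0.16), all 4 apart at every time. The chitinase gene chia4a (LOC4336265) read 521 and 431 at 0 h, 582 and 591 at 2 h and 840.1 and 342 at 4 h in wild type. In crl1 chia4a read 132 and 148 at 0 h, 147 and 126 at 2 h and 170.5 and 169 at 4 h (difference -1.84 ± 0.19 log2 units, limma adjusted p = 0.0011). Cht6 (LOC4329920) read 67.8 and 37.1 at 0 h, 68.5 and 68.5 at 2 h and 65.7 and 62.1 at 4 h in crl1. In wild type Cht6 read 27.4 and 25.4 at 0 h, 35.6 and 33.7 at 2 h and 27 and 27.1 at 4 h (difference 1.05 ± 0.17, adjusted p = 0.015). Cht6 lost its call when either array of wild type at 0 h, array 1 of wild type at 4 h, either array of crl1 at 2 h or array 1 of crl1 at 4 h was left out (adjusted p 0.0504 to 0.065) and with the random block (adjusted p = 0.078), where the other 3 of the list kept theirs. Of 31 lipoxygenase and jasmonate genes LOX3 and LOX1.1 (LOC4334049) passed, both as lower, while 23 lay above 0 (median 0.23). LOX1.1 read 53.3 and 97 at 0 h, 110.4 and 94 at 2 h and 115 and 90.5 at 4 h in wild type. In crl1 LOX1.1 read 17.7 and 16.9 at 0 h, 5.02 and 16.2 at 2 h and 79.2 and 19.1 at 4 h (adjusted p = 0.016), with both crl1 arrays at 2 h at or below background. Its call was lost when array 2 of wild type at 0 h, array 1 of wild type at 4 h or array 1 of crl1 at 0 h was left out (adjusted p 0.052 to 0.066) and with the random block (adjusted p = 0.12), where LOX3 passed (adjusted p = 0.0012).

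Among transcription factors, IPA1 (LOC4345998), a SQUAMOSA promoter-binding protein that shapes the rice shoot, read 108 and 74.6 at 0 h, 81.8 and 69.7 at 2 h and 108 and 74.2 at 4 h in wild type. In crl1 IPA1 read 17.7 and 21.7 at 0 h, 15.5 and 19.7 at 2 h and 33.1 and 30.7 at 4 h. It was the 1 of 14 SPL factors that passed (median -0.04), at -1.93 ± 0.17 log2 units (limma adjusted p = 0.00039). Of 31 homeodomain-leucine zipper factors 2 were lower (median 0.08). hox14 (LOC4343726) read 95.9 and 100.4 at 0 h, 84.6 and 150.0 at 2 h and 63.3 and 59.2 at 4 h in wild type. In crl1 hox14 read 0.934 and 17.2 at 0 h, 23.7 and 33.5 at 2 h and 10.4 and 8.93 at 4 h, where 2 arrays lay at or below background (adjusted p = 0.026). The other was HOX12 (LOC4331956), with wild type 124 to 159, median 145 and crl1 34.4 to 93.2, median 72.1 (adjusted p = 0.026). hox14 lost its call when any array but either array of wild type at 2 h or either array of crl1 at 0 h was left out (adjusted p 0.063 to 0.091), and HOX12 when any array but either array of wild type at 2 h, array 2 of crl1 at 0 h or either array of crl1 at 2 h was left out (adjusted p 0.059 to 0.094). Both also lost it with the random block (adjusted p = 0.12 and 0.11). NAC076 was the 1 of 7 NAC factors that passed (median -0.05), and FDRMADS3 (LOC4344493) the 1 of 17 MADS factors, as lower but not apart at 2 h (adjusted p = 0.041, median -0.20). FDRMADS3 lost its call when any array but either array of wild type at 2 h was left out (adjusted p 0.068 to 0.13). Of 9 DREB and RAB16 genes the dehydrin gene RAB16D (LOC4350451) was lower, with wild type 234 to 777, median 540.5 and crl1 83.9 to 321, median 216 (adjusted p = 0.035, median 0.00). It lost its call when any array but array 1 of wild type at 2 h, array 2 of crl1 at 0 h or array 2 of crl1 at 4 h was left out (adjusted p 0.053 to 0.12). With the random block IPA1 and NAC076 passed, and FDRMADS3 and RAB16D did not (adjusted p = 0.18 and 0.14).

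WOX11 (LOC4344325), a homeobox activator of crown root emergence, read 362 and 452 at 0 h, 1659 and 1114 at 2 h and 263 and 176 at 4 h in wild type. In crl1 WOX11 read 414 and 362 at 0 h, 1897 and 2307 at 2 h and 389 and 359 at 4 h. The genotypes overlap at 0 h, and the averaged difference of 0.45 ± 0.15 log2 units did not pass (limma adjusted p = 0.17). WOX9 (LOC4324824), a homeobox gene of the root tip, was dim at 13.1 and 16.4 at 0 h, 10 and 20.2 at 2 h and 14.3 and 23.2 at 4 h in wild type. In crl1 WOX9 read 5.47 and 6.32 at 0 h, 6.15 and 11.5 at 2 h and 9.09 and 17.9 at 4 h and did not pass either (adjusted p = 0.22), with 4 crl1 arrays at or below background. None of 5 WOX genes passed (median -0.10). Nor did any of the genes listed by name as peroxidases (2, median 0.93), kinesins (35, 0.00), aquaporins (23, -0.02), WRKY factors (5, 0.31) or heat shock genes (40, -0.10). Of 23 iron and zinc uptake genes IRT1 (LOC4333669), an iron transporter of root surfaces, was lower (adjusted p = 0.026, median of the list 0.16), with wild type 16.1 to 48.3, median 19.5 and crl1 6.13 to 11.2, median 8.12, 4 of these crl1 arrays at or below background. Its call was lost when any array but array 1 of wild type at 0 h or either array of wild type at 2 h was left out (adjusted p 0.053 to 0.096).

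Markers of other tissues were looked at as lists. Of 7 leaf and photosynthesis markers rbcS, the small subunit of Rubisco, was lower (-0.66 ± 0.12, limma adjusted p = 0.030, median of the list -0.09), with summed signals of 12280.3 to 21479 in wild type and 11944 to 15837 in crl1. Dimmer probe sets of the same gene did not pass (-0.71 and -0.17, limma adjusted p = 0.42 and 0.75). Leaving out each array in turn, rbcS passed 4 times of 12, and with the random block its adjusted p was 0.13. Of the 24 members of the gene lists that passed, 9 did so with the random block. Over all 32524 tested probe sets 449 passed (1.38%), and 122 did with the block. Over all measured genes 1.10% passed as lower and 0.511% as higher. None of 44 markers of dividing cells passed (median -0.03), nor any of 3 xylem (-0.11) or 2 shoot meristem markers (0.24).

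Further genes with names were different at every time but lie outside the rule for naming, so those below were picked with their values known. Lower in crl1 were IAMT1 (LOC4337315), which methylates auxin, with median signals of 39.3 in wild type and 4.96 in crl1, at or below background on 4 of 6 crl1 arrays and at least 4.26-fold lower at 0 h (limma adjusted p = 0.0029), and PID (LOC4352785), bearing the name of the kinase PINOID that directs PIN carriers in Arabidopsis, at 96.0 and 43.8 (-1.15 ± 0.18, adjusted p = 0.012). Nrat1 (LOC4328200), an aluminium transporter, stood at medians of 214 and 135 (-1.08 ± 0.20, adjusted p = 0.029). CKS1 (LOC4331610), a subunit of cyclin-dependent kinases, stood at 481 and 245 (-0.95 ± 0.14, adjusted p = 0.0091). Cht4 (LOC4336263), another chitinase gene, stood at 425 and 141 (-1.48 ± 0.24, adjusted p = 0.015). Higher was TUB8 (LOC4333632), a beta-tubulin, at 576 in wild type and 948 in crl1 (0.76 ± 0.12, limma adjusted p = 0.013). Whichever array was left out IAMT1 and CKS1 passed, while PID did so for 11 of the 12 arrays, Cht4 for 10, TUB8 for 8 and Nrat1 for 5. With the random block IAMT1, CKS1 and Cht4 passed, while PID, Nrat1 and TUB8 did not (adjusted p = 0.074, 0.15 and 0.0508).

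The repetitions differed in size within the mutant. Computed within repetition 1 the lower probe sets had a median difference of -1.25 and within repetition 2 of -1.12, and the higher ones 1.04 and 0.84. In crl1, 103 of the 281 lower probe sets (36.7%) had repetition 2 above repetition 1 at all 3 times and 23 (8.19%) the reverse. Among the 129 higher ones 12 (9.30%) had repetition 2 above and 54 (41.9%) repetition 1 above. The crl1 arrays of repetition 2 thus lay nearer to wild type in both directions. Over all tested probe sets the crl1 shares were 25.4% and 18.0%. In wild type the shares among the lower probe sets were 24.2% and 17.1%, close to the 23.3% and 18.8% of all tested. In 51 of the 410 the differences within the 2 repetitions were more than 1 log2 unit apart.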

How the data were processed

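RNA of 12 stem base extracts was hybridised to 12 one-colour Affymetrix Rice Genome Arrays. The authors deposited an intensity for each probe set on a linear scale, computed with MAS5 in Affymetrix Expression Console per the submitters' processing notes, which give no version. The deposited signals of every array have a mean of 100 once the top and bottom 2% are set aside, which shows how they were scaled. Raw image files and detection calls were not used here.

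Signals were turned to log2. Rice probe sets above their array's median on at least 2 arrays were kept. limma 3.58.1 (R 4.3.3) fitted 1 mean per group (6 residual degrees of freedom, median prior 4.79, intensity trend, two-sided tests, Benjamini-Hochberg over all kept probe sets). Contrasts were crl1 minus wild type averaged over 0 h, 2 h and 4 h, at each time, and an F test of the 2 interaction contrasts. The tests were tried on simulated data. The number of arrays limits the precision, and p-values measure only the spread between these extracts.

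Names come from the platform annotation (22436 probe sets with 1 gene, 95 with several, 34663 with none) and the gene table of assembly ASM3414082v1, which held all 17905 genes. 2452 have a name. Coordinates of that assembly were used only for which genes neighbour each other. Sequences were not used here.

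The text names, with 1 probe set per gene, the 15 largest fitted falls and rises at every time, genes past 0.05 at each time, up to 6 genes with the smallest interaction p, up to 3 passing members of each list, WOX11 and WOX9. List members were found by gene name, so genes known by a LOC number only are in no list. The comparison, the lists and this rule were chosen with earlier results of these data known. Alternatives tried were a replicate block, a random block of genotype and repetition, means of the times, an additive model, median centring, quantile normalization, log2(signal + 16), other filters, no trend, array weights, the GAPDH ratio as covariate, a change of at least 2-fold and each array left out.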

Additional observations from a re-analysis of the deposited data

How the results depend on the processing

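Counts of passing probe sets are given for the averaged difference (449 as reported), for every time (410), at 0 h (33), 2 h (24) and 4 h (26), and at each of the 3 times (15). A random block of genotype and repetition gave 122 averaged and 121 at every time, means of the 3 times 66 and 63, a filter at the 75th percentile 296 and 268, no intensity trend 242 and 226, and a change of at least 2-fold 263 and 243. The arrays of 0 h and 4 h alone, a setting chosen after seeing the data, gave 217 and 214. At single times the 75th percentile filter gave 16, 11 and 9 at 0 h, 2 h and 4 h and 8 at each of the 3, and array weights gave 52, 12 and 99. At 4 h no filter gave 17 and the GAPDH covariate 94. The cause of these shifts was not tested, beyond the fewer probe sets or arrays of some settings. With 1 array left out the averaged count ran from 151 to 3675, every time from 150 to 1624, 0 h from 0 to 50, 2 h from 11 to 4761, 4 h from 7 to 44, each of the 3 times from 0 to 22 and the interaction from 0 to 814. The top counts of 3675, 1624, 4761 and 814 come from the fit without wild type 2 h replicate 1.

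Repetition as a block gave 1037 averaged, 742 at every time and 71 at 0 h. Deviations of same-numbered arrays of the same time correlated from 0.037 to 0.186, and 11 of 15 pairs of groups lay above 0.1, so the numbers were not shown to pair the arrays.

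For the named genes and probe sets, the other settings kept direction and side of the threshold in 751 values and the direction only in 124. With 1 array left out these numbers were 633 and 194, and 1 value newly passed. In no setting run did a named gene change direction. Dim signal limits the folds: where a genotype lay at background only a lower limit is known.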
